A study of Mus musculus with 18 samples.

Results

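The immediate early and stress response genes were a set of 42 named mouse genes, measured in sorted cortical interneurons of 2 genotypes at 3 ages. They were taken as the array's probe sets that the annotation assigns to 1 gene with a member's symbol, and each gene was read from its brightest one. All 42 were found, and all 42 were among the 14292 genes kept after the dimmest 30% of probe sets were left out. The cells were interneurons of the caudal ganglionic eminence (CGE), an embryonic source of cortical interneurons, collected as GFP-positive cells from mice carrying GAD65-GFP. The groups were Htr3a-KO and control cells at embryonic ages E14.5 (tangential migration) and E18.5 (entry into the cortical plate) and at postnatal day 2 (P2, settling in the cortex). Both genotypes carried GAD65-GFP, and Htr3a-KO mice lacked Htr3a, the serotonin-gated channel subunit that marks this interneuron class. Each group had 3 arrays, 1 for each of 3 litters, and the RNA on an array came from at least 4 brains of that litter, so the spread is between litters. The tissue was freshly cut brain slices, and the cells were dissociated and sorted before RNA was extracted, in every group. GFP under GAD65 control marks GABAergic cells in general, and the label of CGE origin is the submitters'.

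Immediate early genes are transcribed within minutes of a stimulus, without new protein synthesis, through kinases that act on factors already bound at their promoters, such as SRF with ELK proteins at CArG boxes and CREB at cyclic AMP response elements. Depolarisation, growth factors, tissue dissociation and heat all induce members of the set. Many encode transcription factors (the AP-1, EGR, NR4A and KLF families), others encode proteins that end the response (phosphatases, mRNA decay factors), and a few are effectors at synapses or in the matrix, or chaperones.

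The deposited values are log2 intensities of Affymetrix Mouse Genome 430 2.0 arrays, and every level below is such a value. Array medians were 6.35 to 6.45 on the log2 scale, and pairs of arrays of 1 group correlated at 0.974 to 0.994 over the genes tested. The Htr3a probe set gave 7.19 to 7.41 in Htr3a-KO and 7.65 to 8.49 in control arrays at E14.5, 6.61 to 7.09 in Htr3a-KO and 9.64 to 10.79 in control arrays at E18.5, and 6.71 to 7.01 in Htr3a-KO and 8.61 to 9.11 in control arrays at P2. It was lower in every Htr3a-KO array than in every control array of the same age, and whether it lies within the deleted part is not given in the sources used here. Gad1, which makes the GABA of these cells, had group means of 11.15 to 11.84. Gad2, the gene of GAD65, averaged 10.21 in Htr3a-KO and 10.76 in control cells at E14.5, and 8.92 and 9.24 at P2. Markers of other cells also gave high values, and values of different probe sets cannot be ranked as amounts of RNA. Neurod6, an excitatory neuron marker, averaged 12.14 in Htr3a-KO and 12.16 in control cells at E14.5. Olig1, an oligodendrocyte lineage marker, averaged 13.38 in Htr3a-KO and 13.23 in control cells at P2. The number of arrays limits the precision. The p-values rest on the spread between litters within groups, pooled for each gene over the 6 groups. A gene therefore has the same SE in both genotypes, also where 1 group spreads more widely than the others. In pooled cells, fewer cells of a type and less RNA per cell cannot be told apart.

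Of the 42 genes, 33 had a promoter of 250 bases before to 50 bases after the transcription start in RefSeq (GRCm38.p6). The recognition sequence of the EGR factors (GCGNGGGCG, both strands) was in the promoters of 9 of the 33 (27.3%), namely Btg2, Fosb, Fosl2, Gadd45b, Klf2, Klf4, Nr4a1, Nr4a2 and Zfp36, and in 6.27% of 27025 genes. CArG boxes, the sites of SRF, were in 3 of the 33 (9.09%), namely Dusp5, Egr2 and Zfp36, and in 1.81% of all genes. The cyclic AMP response element TGACGTCA was in Btg2 and Dusp1 (6.06%, against 2.03% of all genes). The AP-1 sequence TGANTCA was in Bdnf and Zfp36l1 (6.06%, against 8.97% of all genes), and TATAAA in 7 of the 33 (21.2%, against 15.7%). The heat shock element (GAA, TTC and GAA with 2 free bases between neighbours) was in 0 of the 33 and in 0.662% of all genes. A gene with several starts was counted once, and a match or its absence describes letters in this window and nothing more. In Zfp36 the EGR sequence and the CArG box do not overlap, and in Dusp5 2 CArG boxes lie end to end.

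The last 120 bases before the start are shown for Egr2, Fosb, Nr4a1 and Zfp36, which passed below and hold an EGR sequence or a CArG box there. They are also shown for Dusp5, which holds a pair of CArG boxes and passed in no comparison below. Fos, Klf6 and Ccn1 passed too, had neither sequence in the window searched, and are not shown. Each stretch shown is written 5′ to 3′ on the gene's strand, with CArG boxes and EGR sequences in capitals. On GRCm38.p6 they are chr10:67537446-67537565 on the plus strand for Egr2 (1 of 5 starts), chr7:19310046-19310165 on the minus strand for Fosb, chr15:101266726-101266845 on the plus strand for Nr4a1, chr7:28379229-28379348 on the minus strand for Zfp36 and chr19:53529025-53529144 on the plus strand for Dusp5.
Egr2: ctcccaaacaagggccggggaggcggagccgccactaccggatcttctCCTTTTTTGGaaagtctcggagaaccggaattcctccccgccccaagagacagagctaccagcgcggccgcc
Fosb: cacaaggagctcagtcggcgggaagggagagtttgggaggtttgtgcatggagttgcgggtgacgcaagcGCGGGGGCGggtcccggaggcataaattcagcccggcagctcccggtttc
Nr4a1: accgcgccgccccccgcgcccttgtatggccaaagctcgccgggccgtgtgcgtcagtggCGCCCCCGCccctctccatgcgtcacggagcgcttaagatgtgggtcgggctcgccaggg
Zfp36: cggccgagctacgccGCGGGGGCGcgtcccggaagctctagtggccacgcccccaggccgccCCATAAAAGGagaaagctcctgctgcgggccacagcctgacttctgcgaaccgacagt
Dusp5: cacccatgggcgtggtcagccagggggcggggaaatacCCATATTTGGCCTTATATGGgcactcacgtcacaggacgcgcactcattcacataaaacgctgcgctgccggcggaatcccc
Egr2 shows 1 CArG box, Fosb and Nr4a1 each show 1 EGR sequence (in Nr4a1 on the opposite strand), Zfp36 shows both kinds, and Dusp5 shows its pair of CArG boxes.

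From E14.5 to E18.5, between tangential migration and entry into the cortical plate, many of the AP-1, EGR, NR4A and KLF transcription factors rose in both genotypes. Fosb, a partner of JUN proteins in AP-1, was 5.39-fold higher at E18.5 than at E14.5 in Htr3a-KO cells and 9.02-fold higher in control cells. Egr2, a zinc finger factor, was 3.93-fold higher in Htr3a-KO and 8.71-fold higher in control cells. Nr4a1, an orphan nuclear receptor, was 3.59-fold and Klf6, a zinc finger factor, 3.39-fold higher in Htr3a-KO cells, and 5.17-fold and 4.32-fold higher in control cells. Dusp4, a nuclear phosphatase of MAP kinases, and Ier5 were lower at E18.5 in Htr3a-KO cells.

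With limma and Benjamini-Hochberg adjustment over the 14292 genes, 16 of the 42 genes rose and 2 fell from E14.5 to E18.5 in Htr3a-KO cells, where 15.1% of all genes passed (6.26% higher and 8.88% lower). In control cells 20 rose and 0 fell, where 11% of all genes passed (6.06% higher and 4.93% lower). The median difference of the members was 0.40 in Htr3a-KO cells, against -0.10 over all genes, and 0.81 in control cells, against -0.01 over all genes. The members that rose in both genotypes numbered 15, which is 93.8% of those in Htr3a-KO and 75% of those in control cells. Over all genes the shared rises made up 55.7% of those in Htr3a-KO and 57.5% of those in control cells. Without 1 array, the counts passing were 11 without Htr3a-KO E14.5 array 2, 10 without Htr3a-KO E18.5 array 1 and 9 without Htr3a-KO E18.5 array 2, and in control cells 13 without E14.5 array 1. In control cells 13 also passed where the 6 arrays compared were fitted alone.

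From E18.5 to P2 some genes that had risen in the first step rose again. These were 11 of the 42 genes, among them Klf2, Junb and Ccn1, counting a rise in either genotype. Arc, Ier3, Atf3, Zfp36, Gadd45b, Cdkn1a, Hspa1a and Hspa1b passed in this step and not in the first. Zfp36, which speeds the decay of AU-rich mRNAs, was 3.80-fold higher at P2 in Htr3a-KO cells and 6.19-fold higher in control cells. Ccn1, a secreted matricellular protein, was 3.07-fold higher in Htr3a-KO and 4.89-fold higher in control cells. Ier3, a survival regulator, was 2.83-fold and Atf3, a stress-induced AP-1 relative, 3.54-fold higher in Htr3a-KO cells, and 4.06-fold and 6.85-fold higher in control cells. Dusp4 fell in both genotypes.

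In this step 15 of the 42 genes rose and 2 fell in Htr3a-KO cells, where 28.5% of all genes passed (13.5% higher and 15% lower). In control cells 12 rose and 2 fell, where 19.7% passed (9.96% higher and 9.75% lower). The median difference of the members was 0.61 in Htr3a-KO cells, against 0 over all genes, and 0.27 in control cells, against -0.04 over all genes. In both genotypes 8 members rose, which is 53.3% of those in Htr3a-KO and 66.7% of those in control cells, against 53.8% of those in Htr3a-KO and 72.9% of those in control cells over all genes. The count fell to 5 without Htr3a-KO E18.5 array 1, to 5 without Htr3a-KO P2 array 1 and to 7 without Htr3a-KO E18.5 array 3. In control cells it fell to 8 without E18.5 array 2 and to 8 without P2 array 2.

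Over both steps and genotypes, 31 of the 42 genes passed at least once, 23 in the first step and 22 in the second. Klf2, a zinc finger factor, rose in both steps of both genotypes, but its call in the first Htr3a-KO step was lost in 9 of 14 alternatives. The 11 that passed in none of the 4 comparisons were Jund, Egr4, Nr4a2, Klf10, Dusp1, Dusp5, Zfp36l1, Sik1, Btg2, Homer1 and Gadd45g. The 2 steps share the E18.5 arrays. Every fall that passed belonged to Dusp4, Ier5 or Nr4a3. Of the 69 calls, 31 held under every processing alternative and with each array left out in turn. In the first step these were Fos, Fosb, Egr1, Egr2, Nr4a1, Klf6 and Dusp6 in both genotypes, Dusp4 and Nptx2 in Htr3a-KO cells, and Nr4a3, Ier2, Klf2 and Per1 in control cells. In the second they were Dusp4, Zfp36 and Ccn1 in both genotypes, Junb in Htr3a-KO cells, and Ier3, Atf3, Ccn2 and Cdkn1a in control cells. The other calls were lost in at least 1 of them. Other probe sets of a gene were not among these alternatives, and a second probe set of Nr4a3 did not show its first control step.

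**Figure D1:**
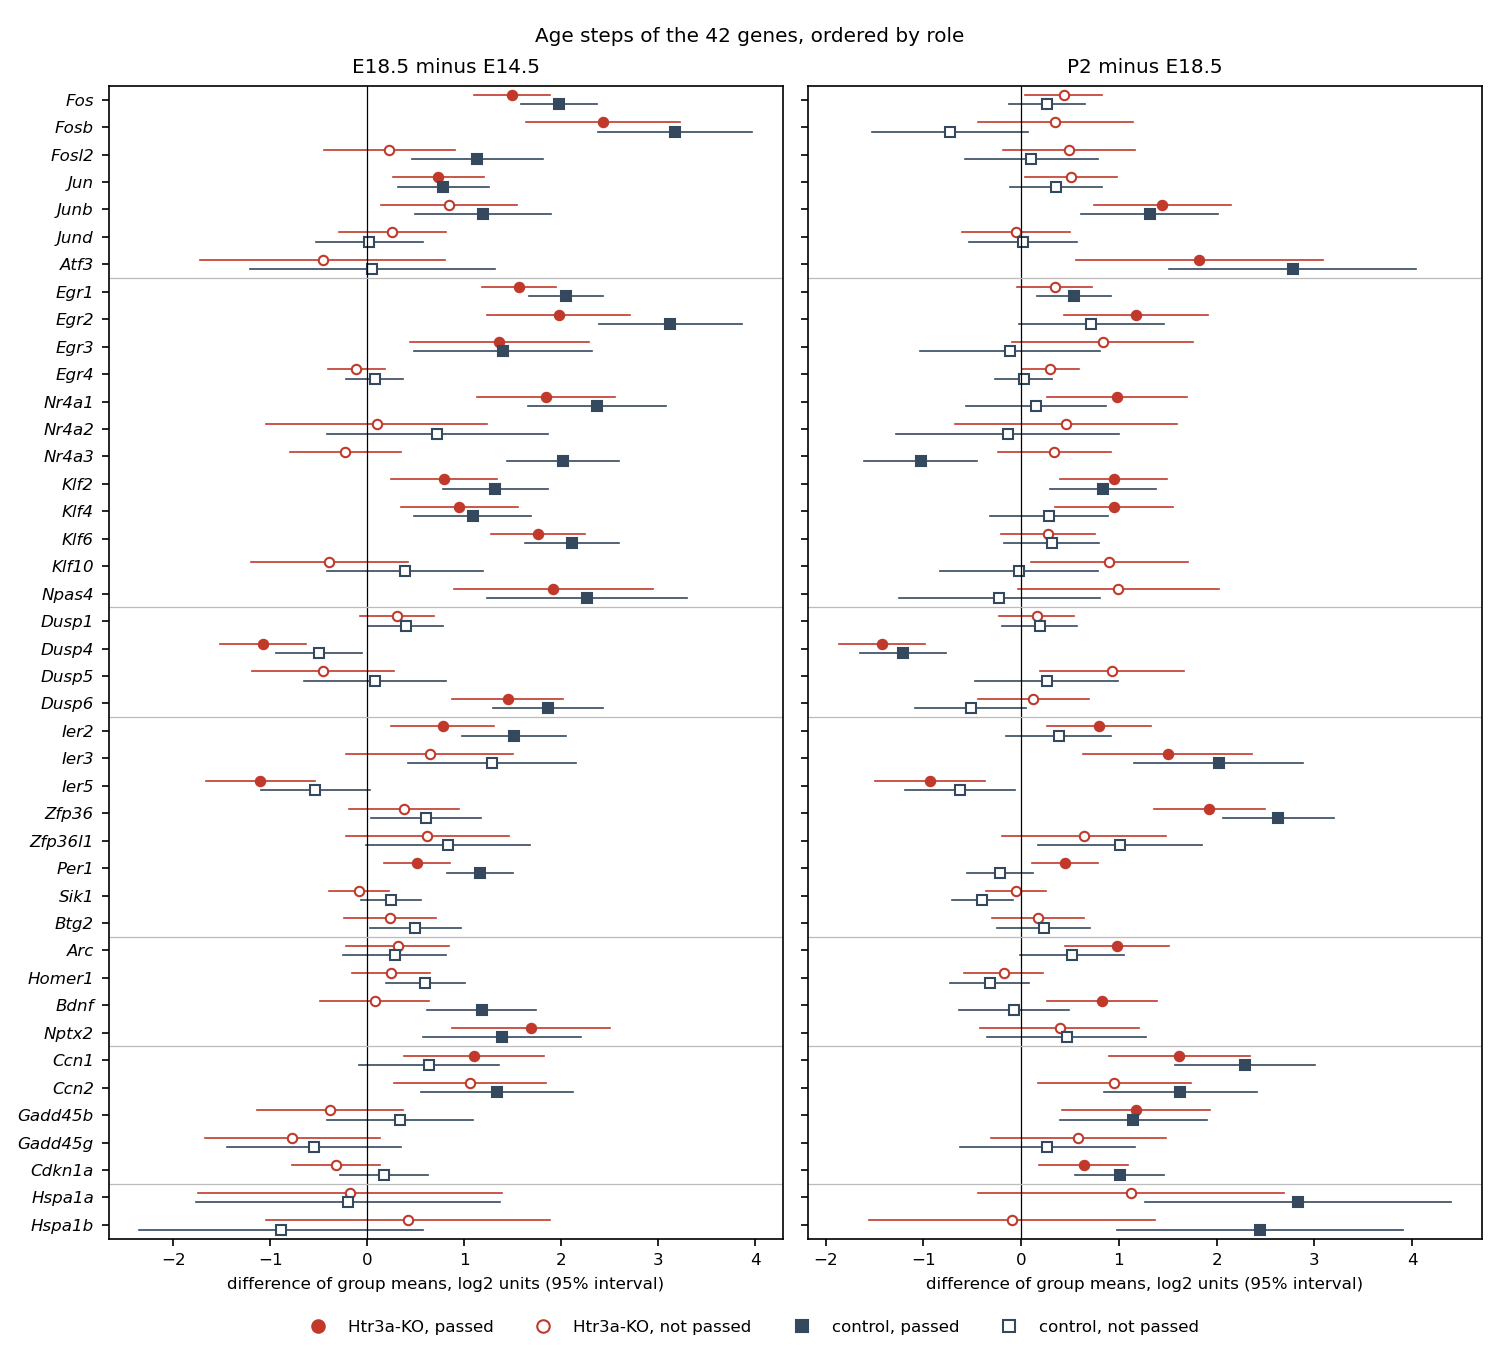
Differences between ages in log2 units (x axis) with 95% intervals for the 42 genes (rows, ordered by role), E18.5 minus E14.5 on the left and P2 minus E18.5 on the right, with Htr3a-KO as red circles and control as blue squares, filled where the adjusted p was under 0.05. In the left panel the filled symbols of the AP-1, EGR, NR4A and KLF genes lie right of 0, and in the right panel those of Zfp36, Ccn1, Ier3 and Atf3 do, with Dusp4 left of 0.

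Among the AP-1 genes, which encode the leucine zipper subunits of the AP-1 dimer, 3 of 7 rose from E14.5 to E18.5 in Htr3a-KO and 5 of 7 in control cells, and 2 of 7 rose from E18.5 to P2 in each genotype. Fos gave 11.75, 11.78 and 11.76 in Htr3a-KO and 10.79, 11.76 and 11.38 in control arrays at E14.5, 13.31, 13.42 and 13.04 in Htr3a-KO and 13.45, 13.09 and 13.31 in control arrays at E18.5, and 13.83, 13.50 and 13.75 in Htr3a-KO and 13.51, 13.50 and 13.64 in control arrays at P2. The E14.5 arrays lay below all others in both genotypes, and the E18.5 and P2 arrays lay close together. The first step of Fos was 1.49 ± 0.18 (SE, adjusted p = 0.000174) in Htr3a-KO and 1.97 ± 0.18 (SE, adjusted p = 1.55e-05) in control cells, and the second did not pass (0.44 in Htr3a-KO and 0.27 in control cells). Fosb gave 6.74, 6.71 and 6.69 in Htr3a-KO and 6.35, 7.17 and 6.53 in control arrays at E14.5, 9.43, 9.59 and 8.41 in Htr3a-KO and 9.80, 10.43 and 9.34 in control arrays at E18.5, and 9.92, 9.08 and 9.48 in Htr3a-KO and 9.94, 8.68 and 8.77 in control arrays at P2. For Fosb too the E14.5 arrays were the lowest, with no overlap with the later ages. Its first step was 2.43 ± 0.37 (SE, adjusted p = 0.000818) in Htr3a-KO and 3.17 ± 0.37 (SE, adjusted p = 0.000110) in control cells. In the second step its difference was 0.35 in Htr3a-KO and -0.73 in control cells, neither of which passed.

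Jun gave 9.85, 9.47 and 10.17 in Htr3a-KO and 9.33, 9.97 and 10 in control arrays at E14.5, 10.45, 10.64 and 10.60 in Htr3a-KO and 10.80, 10.52 and 10.34 in control arrays at E18.5, and 11.43, 10.70 and 11.10 in Htr3a-KO and 11.17, 10.83 and 10.74 in control arrays at P2. Jun encodes the central partner of FOS proteins, and its ages lay closer together than those of Fos. The first step was 0.73 ± 0.22 (SE, adjusted p = 0.0363) in Htr3a-KO and 0.79 ± 0.22 (SE, adjusted p = 0.0320) in control cells. Junb, a JUN protein that restrains JUN, had a first step of 0.84 (adjusted p = 0.0928) in Htr3a-KO cells and rose by 1.20 ± 0.33 (SE, adjusted p = 0.0294) in control cells. From E18.5 to P2 it rose by 1.45 ± 0.33 (SE, adjusted p = 0.00500) in Htr3a-KO and 1.32 ± 0.33 (SE, adjusted p = 0.0113) in control cells. Fosl2 passed in the first step of control cells (1.13 ± 0.32 (SE, adjusted p = 0.0320)). Jund, the JUN protein that is present without a stimulus, stayed between 11.50 and 11.76 in its 6 group means. Atf3 had P2 means of 9.39 ± 0.73 in Htr3a-KO and 9.84 ± 1.17 in control cells, against E18.5 means of 7.57 ± 0.23 in Htr3a-KO and 7.07 ± 0.68 in control cells (SD, n = 3 each).

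**Figure D2:**
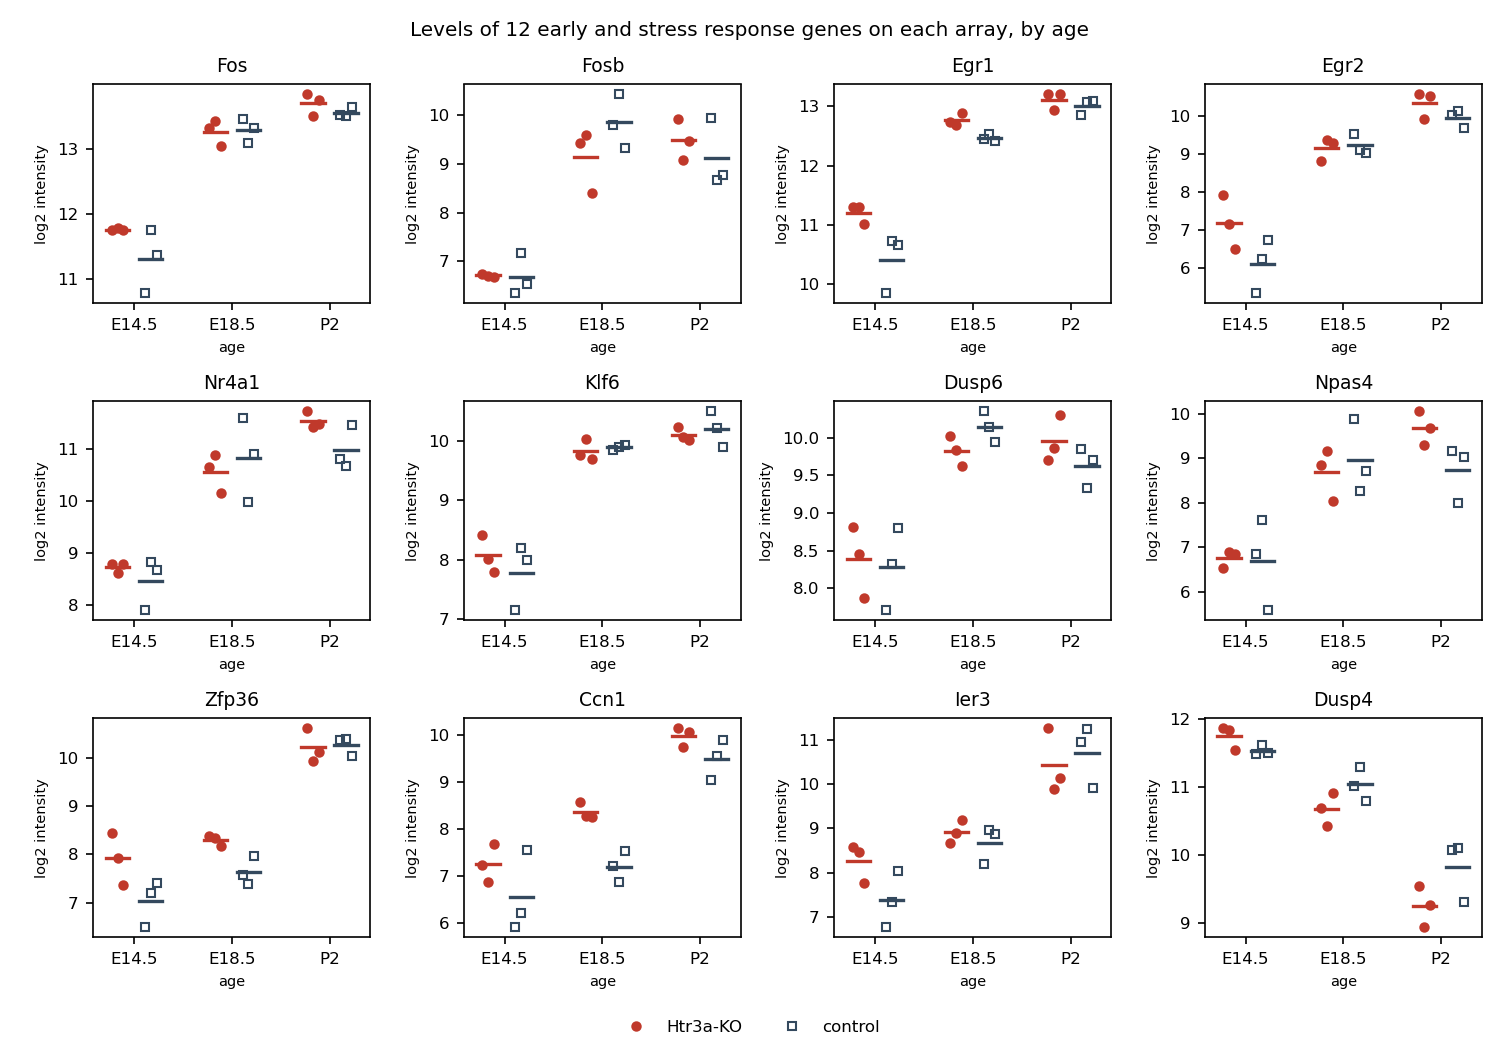
Log2 intensity (y axis, on a scale of its own in each panel) of 12 genes on each of the 18 arrays by age (x axis), with Htr3a-KO arrays as red circles left of control arrays as open blue squares, and a bar at each group's mean of 3 arrays. Fos, Fosb, Egr1, Egr2, Nr4a1, Klf6, Dusp6 and Npas4 stand lowest at E14.5, Zfp36, Ccn1 and Ier3 stand highest at P2, and Dusp4 stands highest at E14.5 and lowest at P2.

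The zinc finger, nuclear receptor and bHLH factors made up 8 of the 16 rises from E14.5 to E18.5 in Htr3a-KO and 9 of the 20 in control cells, out of 12 such genes. From E18.5 to P2, 4 of 12 rose in Htr3a-KO cells, against 2 of 12 with 1 fall in control cells. Egr1 gave 11.31, 11.30 and 11.01 in Htr3a-KO and 9.85, 10.73 and 10.66 in control arrays at E14.5, 12.73, 12.69 and 12.89 in Htr3a-KO and 12.45, 12.54 and 12.41 in control arrays at E18.5, and 13.20, 12.94 and 13.20 in Htr3a-KO and 12.85, 13.08 and 13.09 in control arrays at P2. Egr1, a factor induced by growth factors and depolarisation, had its 3 ages in order in each genotype. Its first step was 1.56 ± 0.18 (SE, adjusted p = 9.16e-05) in Htr3a-KO and 2.05 ± 0.18 (SE, adjusted p = 8.56e-06) in control cells. The second was 0.34 (adjusted p = 0.162) in Htr3a-KO and 0.54 ± 0.18 (SE, adjusted p = 0.0455) in control cells. Egr2 gave 7.92, 7.15 and 6.51 in Htr3a-KO and 5.34, 6.23 and 6.74 in control arrays at E14.5, 8.83, 9.38 and 9.29 in Htr3a-KO and 9.54, 9.10 and 9.04 in control arrays at E18.5, and 10.57, 9.92 and 10.53 in Htr3a-KO and 10.02, 10.13 and 9.69 in control arrays at P2. Egr2, which directs hindbrain and Schwann cell development as well, lay near the filter level of 5.255 in 1 control array at E14.5 and well above it at the later ages. Its first step was 1.97 ± 0.35 (SE, adjusted p = 0.00193) in Htr3a-KO and 3.12 ± 0.35 (SE, adjusted p = 7.03e-05) in control cells, and its second 1.17 ± 0.35 (SE, adjusted p = 0.0205) in Htr3a-KO cells. Egr3 rose in the first step of both genotypes by this probe set, with 1.36 ± 0.43 (SE, adjusted p = 0.0460) in Htr3a-KO and 1.40 ± 0.43 (SE, adjusted p = 0.0496) in control cells. By its other probe set the difference was -0.34 (adjusted p = 0.0420) in Htr3a-KO and -0.12 (adjusted p = 0.561) in control cells, the opposite direction. Egr4 passed in no comparison, with group means of 7.20 to 7.50.

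The NR4A genes encode nuclear receptors that act without a known ligand, and the 3 of them differed among themselves. Nr4a1 gave 8.78, 8.61 and 8.78 in Htr3a-KO and 7.90, 8.82 and 8.68 in control arrays at E14.5, 10.66, 10.89 and 10.15 in Htr3a-KO and 11.61, 9.99 and 10.91 in control arrays at E18.5, and 11.73, 11.43 and 11.48 in Htr3a-KO and 10.81, 10.68 and 11.47 in control arrays at P2. Nr4a1 was lowest at E14.5 on every array, and its first step was 1.84 ± 0.34 (SE, adjusted p = 0.00257) in Htr3a-KO and 2.37 ± 0.34 (SE, adjusted p = 0.000444) in control cells. Its second step was 0.98 ± 0.34 (SE, adjusted p = 0.0402) in Htr3a-KO cells and 0.15 (adjusted p = 0.806) in control cells. Nr4a3 gave 10.99, 10.96 and 10.26 in Htr3a-KO and 9.67, 9.66 and 10.50 in control arrays at E14.5, 10.51, 10.88 and 10.15 in Htr3a-KO and 12.37, 11.62 and 11.89 in control arrays at E18.5, and 11.10, 10.86 and 10.60 in Htr3a-KO and 11.21, 10.81 and 10.78 in control arrays at P2. The E18.5 control arrays stood above all other arrays of Nr4a3, and the Htr3a-KO arrays of the 3 ages overlapped. In Htr3a-KO cells its steps were -0.22 (adjusted p = 0.598) from E14.5 to E18.5 and 0.34 (adjusted p = 0.360) from E18.5 to P2. In control cells Nr4a3 rose by 2.02 ± 0.27 (SE, adjusted p = 0.000296) in the first step and fell by 1.03 (SE 0.27, adjusted p = 0.0149) in the second. A second probe set of Nr4a3 gave -0.04 (adjusted p = 0.894) and 0.02 (adjusted p = 0.935) for the 2 control steps, so the pattern rests on 1 probe set. The second control call was lost when E18.5 control array 1 was left out, and likewise without P2 control array 2 and without P2 control array 3. Nr4a2 passed nowhere, and its E18.5 control arrays ranged most widely, with 10.64, 7.94 and 10.54.

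Of the KLF factors, zinc finger proteins that bind GC-rich promoters, Klf2, Klf4 and Klf6 rose from E14.5 to E18.5 in both genotypes and Klf10 passed in no step. Klf6 gave 8.42, 8.02 and 7.79 in Htr3a-KO and 7.15, 8.20 and 8.0 in control arrays at E14.5, 9.77, 10.04 and 9.70 in Htr3a-KO and 9.85, 9.90 and 9.93 in control arrays at E18.5, and 10.24, 10.07 and 10.02 in Htr3a-KO and 10.50, 10.22 and 9.90 in control arrays at P2. Klf6 moved in 1 step, with E18.5 and P2 arrays close together. That step was 1.76 ± 0.23 (SE, adjusted p = 0.000224) in Htr3a-KO and 2.11 ± 0.23 (SE, adjusted p = 5.37e-05) in control cells. Klf2 gave 6.87, 6.33 and 6.33 in Htr3a-KO and 5.52, 6.06 and 5.75 in control arrays at E14.5, 7.05, 7.81 and 7.05 in Htr3a-KO and 7.36, 6.58 and 7.35 in control arrays at E18.5, and 8.57, 8.17 and 8.01 in Htr3a-KO and 8.01, 8.14 and 7.66 in control arrays at P2. Klf2 lay between 5.52 and 6.87 at E14.5, near the filter level of 5.255, and rose at each age. Its steps were 0.79 and 0.95 in Htr3a-KO cells (adjusted p = 0.0478 and 0.0129) and 1.32 and 0.84 in control cells (adjusted p = 0.00392 and 0.0306). Klf4 rose by 0.95 ± 0.28 (SE, adjusted p = 0.0357) in Htr3a-KO and 1.09 ± 0.28 (SE, adjusted p = 0.0228) in control cells in the first step, and by 0.95 ± 0.28 (SE, adjusted p = 0.0215) in Htr3a-KO cells in the second.

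Npas4 gave 6.54, 6.89 and 6.86 in Htr3a-KO and 6.85, 7.61 and 5.59 in control arrays at E14.5, 8.84, 9.17 and 8.04 in Htr3a-KO and 9.88, 8.26 and 8.71 in control arrays at E18.5, and 10.05, 9.30 and 9.68 in Htr3a-KO and 9.16, 7.99 and 9.03 in control arrays at P2. Npas4, a bHLH factor induced by calcium entry in neurons, was at its lowest at E14.5 in both genotypes, with 1 control array apart from the other 2 there. The first step was 1.92 ± 0.48 (SE, adjusted p = 0.0164) in Htr3a-KO and 2.27 ± 0.48 (SE, adjusted p = 0.00706) in control cells. From E18.5 to P2 its difference was 0.99 (adjusted p = 0.135) in Htr3a-KO and -0.22 (adjusted p = 0.797) in control cells.

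The MAP kinase phosphatases, which switch off the kinases that induce early genes, moved in opposite directions. Dusp6 gave 8.82, 8.46 and 7.87 in Htr3a-KO and 7.71, 8.32 and 8.80 in control arrays at E14.5, 10.02, 9.84 and 9.63 in Htr3a-KO and 10.35, 10.14 and 9.94 in control arrays at E18.5, and 9.70, 9.87 and 10.30 in Htr3a-KO and 9.85, 9.33 and 9.71 in control arrays at P2. Dusp6, which removes phosphate from ERK in the cytoplasm, was lowest at E14.5 and had no overlap between E14.5 and E18.5. Its first step was 1.45 ± 0.27 (SE, adjusted p = 0.00275) in Htr3a-KO and 1.87 ± 0.27 (SE, adjusted p = 0.000468) in control cells, and the second, which did not pass, was 0.13 in Htr3a-KO and -0.51 in control cells. Dusp4 gave 11.86, 11.83 and 11.54 in Htr3a-KO and 11.49, 11.61 and 11.50 in control arrays at E14.5, 10.69, 10.42 and 10.91 in Htr3a-KO and 11.01, 11.30 and 10.80 in control arrays at E18.5, and 9.55, 8.94 and 9.26 in Htr3a-KO and 10.08, 10.10 and 9.31 in control arrays at P2. All Dusp4 arrays of E14.5 lay above all of E18.5, and these above all of P2. It fell by 1.07 from E14.5 to E18.5 (SE 0.21, adjusted p = 0.00392) and by 1.42 from E18.5 to P2 (SE 0.21, adjusted p = 0.000244) in Htr3a-KO cells. In control cells the differences were -0.50 (adjusted p = 0.145) and -1.21 ± 0.21 (SE, adjusted p = 0.00111). Dusp1, the stress-induced nuclear phosphatase, had group means of 11.33 to 12.02, and Dusp5 of 7.49 to 8.42, and neither passed.

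Of the 8 other feedback regulators, 2 rose and 1 fell in Htr3a-KO and 2 rose in control cells from E14.5 to E18.5, and 4 rose and 1 fell in Htr3a-KO and 2 rose in control cells from E18.5 to P2. Zfp36 gave 8.44, 7.93 and 7.37 in Htr3a-KO and 6.49, 7.20 and 7.41 in control arrays at E14.5, 8.38, 8.34 and 8.17 in Htr3a-KO and 7.57, 7.39 and 7.96 in control arrays at E18.5, and 10.61, 9.93 and 10.13 in Htr3a-KO and 10.37, 10.40 and 10.04 in control arrays at P2. All P2 arrays of Zfp36 lay above all arrays of the earlier ages. The second step was 1.93 ± 0.27 (SE, adjusted p = 0.000169) in Htr3a-KO and 2.63 ± 0.27 (SE, adjusted p = 1.74e-05) in control cells, and the first, which did not pass, was 0.38 in Htr3a-KO and 0.61 in control cells. Zfp36l1, its relative, had the same sign in all 4 comparisons (0.62 to 1.01) and passed in none. Ier3 gave 8.58, 8.47 and 7.78 in Htr3a-KO and 6.78, 7.34 and 8.05 in control arrays at E14.5, 8.67, 8.90 and 9.20 in Htr3a-KO and 8.19, 8.96 and 8.88 in control arrays at E18.5, and 11.25, 9.89 and 10.13 in Htr3a-KO and 10.94, 11.24 and 9.91 in control arrays at P2. Ier3 was highest at P2, with no overlap with E18.5 in either genotype. Its second step was 1.50 ± 0.41 (SE, adjusted p = 0.0130) in Htr3a-KO and 2.02 ± 0.41 (SE, adjusted p = 0.00301) in control cells. Ier2 gave 10.08, 9.51 and 9.67 in Htr3a-KO and 8.63, 8.99 and 9.78 in control arrays at E14.5, 10.47, 10.49 and 10.63 in Htr3a-KO and 10.99, 10.25 and 10.70 in control arrays at E18.5, and 11.59, 10.99 and 11.40 in Htr3a-KO and 11.04, 11.10 and 10.95 in control arrays at P2. Ier2, a nuclear protein of little known function, rose by 0.78 ± 0.25 (SE, adjusted p = 0.0481) in Htr3a-KO and 1.51 ± 0.25 (SE, adjusted p = 0.00139) in control cells in the first step, and by 0.80 ± 0.25 (SE, adjusted p = 0.0274) in Htr3a-KO cells in the second.

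Per1 gave 7.27, 7.39 and 7.30 in Htr3a-KO and 7.02, 7.50 and 7.17 in control arrays at E14.5, 7.67, 8.15 and 7.69 in Htr3a-KO and 8.51, 8.34 and 8.32 in control arrays at E18.5, and 8.33, 8.31 and 8.21 in Htr3a-KO and 8.53, 8.01 and 7.99 in control arrays at P2. Per1, a repressor of the circadian clock that CREB also induces, was lowest at E14.5 in both genotypes. It rose by 0.52 ± 0.16 (SE, adjusted p = 0.0407) in Htr3a-KO and 1.16 ± 0.16 (SE, adjusted p = 0.000342) in control cells in the first step, and by 0.45 ± 0.16 (SE, adjusted p = 0.0476) in Htr3a-KO cells in the second. In control cells the second difference was -0.21 (adjusted p = 0.391). Ier5, a regulator of heat shock factor and PP2A, had means of 11.11 ± 0.19, 10.01 ± 0.31 and 9.08 ± 0.03 in Htr3a-KO cells at E14.5, E18.5 and P2 (SD, n = 3 each). It fell by 1.10 (adjusted p = 0.0131) and fell by 0.93 (adjusted p = 0.0164), and the second difference was 0.03 (adjusted p = 0.889) by its other probe set. In control cells the Ier5 differences were -0.54 (adjusted p = 0.218) and -0.63 (adjusted p = 0.109). Sik1, a kinase that restrains CREB coactivators, and Btg2, an antiproliferative protein, passed nowhere, with group means of 6.67 to 7.07 and 9.30 to 10.12.

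The neuronal effectors passed in different comparisons. Arc gave 6.02, 6.21 and 6.44 in Htr3a-KO and 6.18, 6.73 and 6.15 in control arrays at E14.5, 6.06, 6.84 and 6.72 in Htr3a-KO and 6.65, 6.49 and 6.77 in control arrays at E18.5, and 8.03, 7.30 and 7.24 in Htr3a-KO and 6.88, 7.57 and 7.03 in control arrays at P2. Arc, which controls AMPA receptor removal at synapses, was higher at P2 than at E18.5 in Htr3a-KO cells, without overlap. That step was 0.98 ± 0.25 (SE, adjusted p = 0.00920) in Htr3a-KO and 0.52 (adjusted p = 0.157) in control cells, and the earlier step, which did not pass, was 0.32 in Htr3a-KO and 0.28 in control cells. Bdnf, a neurotrophin, rose by 0.83 ± 0.27 (SE, adjusted p = 0.0303) from E18.5 to P2 in Htr3a-KO cells and by 1.18 ± 0.27 (SE, adjusted p = 0.00997) from E14.5 to E18.5 in control cells. Nptx2, a secreted protein that gathers AMPA receptors, rose by 1.69 ± 0.38 (SE, adjusted p = 0.00956) in Htr3a-KO and 1.39 ± 0.38 (SE, adjusted p = 0.0288) in control cells from E14.5 to E18.5. Homer1, a scaffold of the postsynaptic density, passed nowhere, with group means of 10.74 to 11.34.

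The matricellular and growth arrest genes rose mainly after E18.5, with 3 of 5 in Htr3a-KO and 4 of 5 in control cells. Ccn1 gave 7.24, 6.86 and 7.67 in Htr3a-KO and 5.91, 6.22 and 7.54 in control arrays at E14.5, 8.56, 8.27 and 8.24 in Htr3a-KO and 7.20, 6.86 and 7.52 in control arrays at E18.5, and 10.13, 9.74 and 10.06 in Htr3a-KO and 9.03, 9.54 and 9.88 in control arrays at P2. Each P2 array of Ccn1 lay above each array of the earlier ages. The second step was 1.62 ± 0.34 (SE, adjusted p = 0.00298) in Htr3a-KO and 2.29 ± 0.34 (SE, adjusted p = 0.000321) in control cells, and the first 1.10 ± 0.34 (SE, adjusted p = 0.0400) in Htr3a-KO and 0.64 (adjusted p = 0.257) in control cells. Ccn2, its relative, had steps of 1.06 (adjusted p = 0.0624) and 0.95 (adjusted p = 0.0631) in Htr3a-KO cells. In control cells it rose by 1.34 ± 0.37 (SE, adjusted p = 0.0285) and 1.63 ± 0.37 (SE, adjusted p = 0.00619), although its E14.5 arrays spanned the filter level (5.03 to 6.53 in Htr3a-KO and 4.82 to 5.93 in control arrays).

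Cdkn1a gave 9.35, 8.79 and 8.52 in Htr3a-KO and 8.54, 8.44 and 8.54 in control arrays at E14.5, 8.55, 8.74 and 8.41 in Htr3a-KO and 8.46, 8.76 and 8.83 in control arrays at E18.5, and 9.28, 9.45 and 8.89 in Htr3a-KO and 9.89, 9.94 and 9.25 in control arrays at P2. Cdkn1a, the p21 inhibitor of cell cycle kinases and a p53 target, had embryonic arrays that overlapped and P2 arrays above those of E18.5. It rose by 0.64 ± 0.21 (SE, adjusted p = 0.0354) in Htr3a-KO and 1.01 ± 0.21 (SE, adjusted p = 0.00421) in control cells in the second step. Gadd45b, a stress sensor that activates p38 signalling, rose by 1.17 ± 0.35 (SE, adjusted p = 0.0229) in Htr3a-KO and 1.15 ± 0.35 (SE, adjusted p = 0.0328) in control cells. Gadd45g passed in no step, with group means of 9.72 to 10.49.

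The heat shock genes Hspa1a and Hspa1b encode the inducible HSP70 chaperone and are near-identical copies, so their probe sets may read each other's RNA and the 2 are 1 signal at most. Hspa1a gave 6.94, 7.29 and 6.18 in Htr3a-KO and 8.20, 6.46 and 6.81 in control arrays at E14.5, 6.49, 6.93 and 6.45 in Htr3a-KO and 6.90, 6.29 and 7.69 in control arrays at E18.5, and 7.98, 8.10 and 7.16 in Htr3a-KO and 11.51, 10.37 and 7.50 in control arrays at P2. Hspa1b gave 9.51, 9.50 and 8.89 in Htr3a-KO and 10.71, 8.60 and 9.09 in control arrays at E14.5, 9.85, 10.04 and 9.27 in Htr3a-KO and 8.47, 8.16 and 9.11 in control arrays at E18.5, and 9.19, 10.23 and 9.46 in Htr3a-KO and 12.46, 11.68 and 8.94 in control arrays at P2. At P2, control arrays 1 and 2 stood far above the other arrays of both genes, while control array 3 lay within their range. In Htr3a-KO cells the P2 minus E18.5 difference was 1.12 (adjusted p = 0.264) for Hspa1a and -0.09 (adjusted p = 0.932) for Hspa1b. In control cells it was 2.83 ± 0.74 (SE, adjusted p = 0.0138) for Hspa1a and 2.45 ± 0.69 (SE, adjusted p = 0.0206) for Hspa1b. From E14.5 to E18.5 neither gene passed in either genotype. Both control calls were lost without P2 control array 1 or 2 and without E18.5 control array 2, that of Hspa1b also without E18.5 control array 1, and both where the 6 arrays compared were fitted alone.

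The comparison of Htr3a-KO with control cells asks whether the set depends on the Htr3a channel at each stage, and no member passed at any age. At E14.5 the 42 genes were mostly higher in Htr3a-KO cells in their means, 35 of them with a positive difference. The share of all genes with a positive difference was not counted. At E18.5 15 differences were positive and 27 negative. The arrays of the genotypes did not overlap for 21.4% of the members, near the 20.7% of all genes. Among these, Nr4a3 and Bdnf were lower and Ccn1 higher in Htr3a-KO cells. At P2 the largest difference in size was that of the heat shock gene Hspa1a, which was lower in the mean of Htr3a-KO cells.

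At E14.5, 0 of the 42 genes passed with limma, where 0.014% of all genes did, and 9 had an unadjusted p under 0.05, all of them higher in Htr3a-KO cells (838 over all genes). The median difference was 0.24, against 0.01 over all genes. Egr1 and Klf2 were higher in every Htr3a-KO array than in every control array, which makes 4.76% of the members, where 9.01% of all genes had no overlap. The difference was 0.79 ± 0.18 (SE, adjusted p = 0.392) for Egr1, with a 95% interval of 0.41 to 1.18, and 0.73 ± 0.26 (SE, adjusted p = 0.708) for Klf2. Egr2 differed by 1.09 ± 0.35 (SE, adjusted p = 0.685), Zfp36 by 0.88 ± 0.27 (SE, adjusted p = 0.659) and Nr4a3 by 0.79 ± 0.27 (SE, adjusted p = 0.708), with arrays that overlapped. Without control array 3, Egr1 (0.92, adjusted p = 0.0382), Zfp36l1 (1.38, adjusted p = 0.0450) and Ccn1 (1.19, adjusted p = 0.0469) passed. Their values on that array were 10.66, 10.89 and 7.54, the highest of the 3 control arrays for Zfp36l1 and Ccn1. Its marker lists stood apart too. The mean log2 levels on control arrays 1, 2 and 3 were 9.61, 9.29 and 8.42 over the CGE interneuron list. They were 10.25, 10.30 and 10.85 over the excitatory neuron list, and 6.165, 6.20 and 7.42 over the microglia and macrophage list. The part of cell makeup in these calls was not tested.

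At E18.5, 0 of the 42 genes passed, where 0.021% of all genes did, and 6 had an unadjusted p under 0.05 (1844 over all genes), 2 of them higher in Htr3a-KO cells. The median difference was -0.11, against -0.06 over all genes. The arrays did not overlap for 9 members (21.4%, against 20.7% of all genes). These were Egr1, Zfp36, Zfp36l1, Ccn1 and Hspa1b, which were higher, and Nr4a3, Klf10, Per1 and Bdnf, which were lower in Htr3a-KO cells. At this age the summed linear levels of 3 marker lists were also higher in every Htr3a-KO array than in every control array, although none of their genes passed. The endothelial and mural list gave 3267 to 4419 in Htr3a-KO and 1826 to 3153 in control arrays, the astrocyte list 5010 to 6349 in Htr3a-KO and 1987 to 4512 in control arrays, and the oligodendrocyte lineage list 12270 to 15070 in Htr3a-KO and 5926 to 11820 in control arrays. By mean log2 level the endothelial and mural list overlapped, with 7.504 to 7.958 in Htr3a-KO and 6.758 to 7.565 in control arrays. The astrocyte and oligodendrocyte lineage lists did not overlap by that measure either. The part of these cell types in the member differences was not tested. Nr4a3 differed by -1.45 ± 0.27 (SE, adjusted p = 0.0823), with a 95% interval of -2.02 to -0.87. With the mean of its probe sets in place of the brightest, Nr4a3 passed, at a smaller -0.86 (adjusted p = 0.0235). This is not separate support, because the mean includes the brightest probe set. A second probe set of Nr4a3 showed no rise in control cells from E14.5 to E18.5, as given above. Its own genotype difference is not given here. Bdnf gave 6.57, 6.79 and 6.73 in Htr3a-KO and 8.47, 7.22 and 7.41 in control arrays, a difference of -1.0 ± 0.27 (SE, adjusted p = 0.202). Ccn1 differed by 1.16 ± 0.34 (SE, adjusted p = 0.238) and Per1 by -0.55 ± 0.16 (SE, adjusted p = 0.235). Klf10, a factor that TGF-beta induces, gave 8.04, 8.99 and 8.82 in Htr3a-KO and 9.08, 9.63 and 9.95 in control arrays.

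At P2, 0 of the 42 genes passed, where 0.035% of all genes did, and 4 had an unadjusted p under 0.05 (1083 over all genes). The median difference was 0.10, against -0.04 over all genes. Npas4 and Klf4 were higher in every Htr3a-KO array than in every control array (4.76% of the members, against 9.14% of all genes without overlap), by 0.95 ± 0.48 (SE, adjusted p = 0.678) and 0.64 ± 0.28 (SE, adjusted p = 0.649). Dusp4 differed by -0.58 ± 0.21 (SE, adjusted p = 0.600), Hspa1a by -2.05 ± 0.74 (SE, adjusted p = 0.604) and Hspa1b by -1.40 ± 0.69 (SE, adjusted p = 0.664). Without P2 control array 3, Hspa1a passed at -3.19 (adjusted p = 0.0306). For the mean of the 3 ages, 0 of the 42 genes passed, where 0.294% of all genes did, and 9 had an unadjusted p under 0.05 (1600 over all genes), 7 of them higher in Htr3a-KO cells. Ccn1 had the smallest adjusted p, at 0.79 ± 0.20 (SE, adjusted p = 0.154), and passed once E14.5 control array 3 was left out (0.95, adjusted p = 0.00761).

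**Figure D3:**
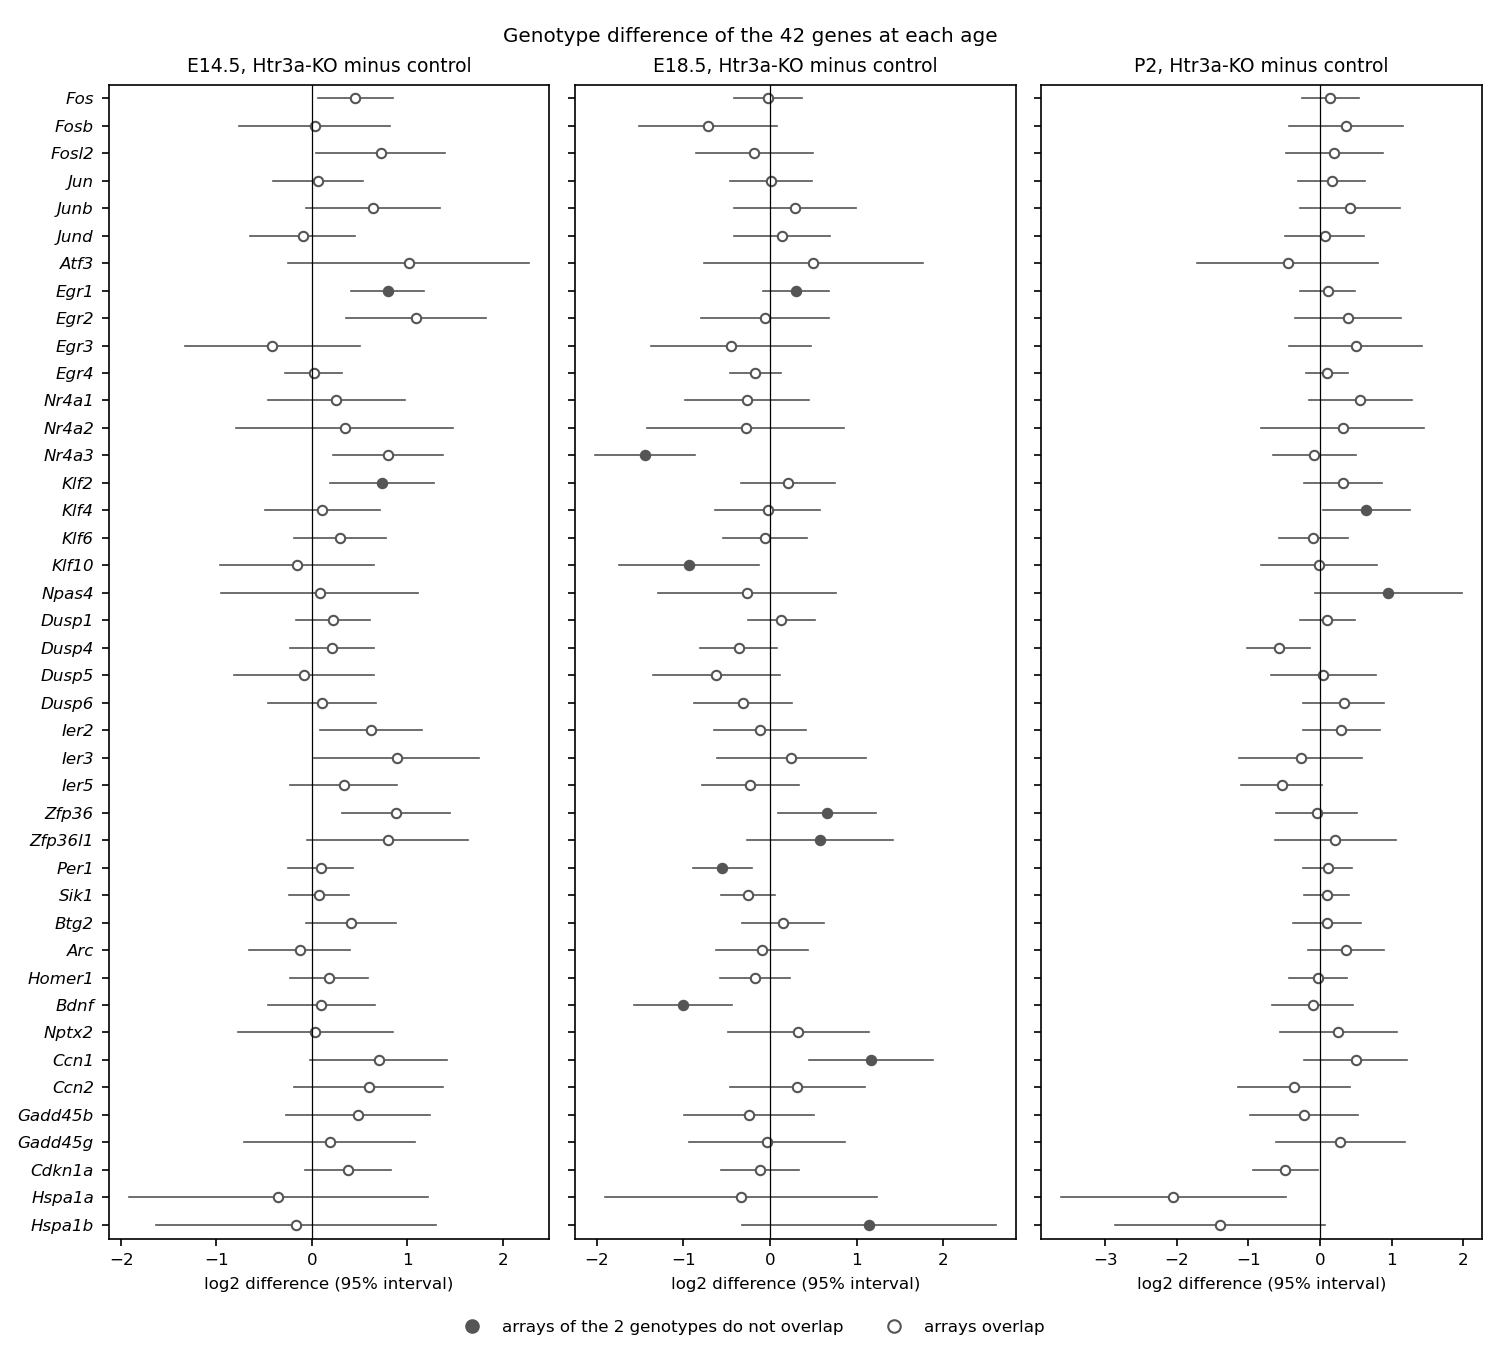
Htr3a-KO minus control differences in log2 units (x axis) with 95% intervals for the 42 genes (rows, ordered by role) at E14.5, E18.5 and P2, each panel with its own scale, filled where the 3 Htr3a-KO and the 3 control arrays do not overlap. At E14.5 most points lie right of 0, at E18.5 the point of Nr4a3 lies at -1.45, and at P2 those of Hspa1a and Hspa1b lie at -2.05 and -1.40, and none passed.

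Whether the age steps themselves differed between genotypes was tested as the Htr3a-KO step minus the control step. From E14.5 to E18.5, 0 of the 42 genes passed, where 0.007% of all genes did, and 4 had an unadjusted p under 0.05 (1032 over all genes). The Htr3a-KO step was the smaller or more negative for 36 of the 42 genes, with a median of -0.39, against -0.08 over all genes. The genotype difference at E14.5, positive for 35 of the 42 genes, is subtracted in it, so this count is not a separate result. The share of all genes with a negative step difference was not counted. Nr4a3 had the largest of these differences in size, at -2.24 ± 0.38 (SE, adjusted p = 0.201), and it passed when control array 3 of E14.5 was left out (-2.52, adjusted p = 0.0129) and when Htr3a-KO array 3 of E14.5 was left out (-2.48, adjusted p = 0.0295). A second probe set of Nr4a3 did not show the control step behind this difference, as given above. The step differences of Egr2, Bdnf and Fosl2 were -1.15, -1.10 and -0.91 (adjusted p = 0.685, 0.685 and 0.687). From E18.5 to P2, 0 of the 42 genes passed, where 0% of all genes did, and 4 had an unadjusted p under 0.05 (1033 over all genes). Nr4a3 differed by 1.37 ± 0.38 (SE, adjusted p = 0.644) there. A gene that passed in only 1 genotype, such as Arc, which passed in Htr3a-KO cells, was therefore not shown to differ between genotypes.

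The members varied more between litters than genes did in general. Their median SD over 3 arrays was 0.25 to 0.45 in the 6 groups, against 0.13 to 0.18 over all genes. The arrays of a group also differed for many members in the same direction. At E14.5, Htr3a-KO array 1 lay above its group mean for 35 of the 42 genes, and control array 1 lay below its group mean for 34. At P2, Htr3a-KO array 1 lay above its group mean for 36. The widest spreads in a group were those of Hspa1a in P2 control cells (SD 2.07), Hspa1b in P2 control cells (SD 1.85), Nr4a2 in E18.5 control cells (SD 1.53) and Atf3 in P2 control cells (SD 1.17).

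Markers of other cell types were read beside these results, and no marker can read 0 on this scale. The summed linear level of the 14 microglia and macrophage markers was 2721 to 12240 in Htr3a-KO and 1150 to 3243 in control arrays at E14.5, 1749 to 2775 in Htr3a-KO and 1253 to 3249 in control arrays at E18.5, and 1872 to 3382 in Htr3a-KO and 2551 to 20860 in control arrays at P2. None of the 14 passed between genotypes, and 3 rose from E18.5 to P2 in control cells, where 9.96% of all genes rose. Laptm5 and Csf1r, which vary most in this list, had E14.5 means of 9.34 and 10.77 in Htr3a-KO and 7.03 and 8.43 in control cells. At P2 they averaged 8.13 and 9.56 in Htr3a-KO and 9.88 and 11.22 in control cells. P2 control arrays 1, 2 and 3, which gave 11.51, 10.37 and 7.50 for Hspa1a and 11.00, 9.87 and 8.66 for Atf3, had mean log2 levels of 9.78, 8.15 and 7.08 over the microglia list. E14.5 Htr3a-KO arrays 1, 2 and 3, with 7.92, 7.15 and 6.51 for Egr2 and 8.94, 8.03 and 7.11 for Atf3, had 9.05, 7.71 and 7.13. The orders did not match in every group. E14.5 control arrays 1, 2 and 3 gave 8.20, 6.46 and 6.81 for Hspa1a, and 6.165, 6.20 and 7.42 over the microglia list. P2 Htr3a-KO arrays 1, 2 and 3 gave 10.23, 9.03 and 8.91 for Atf3, and 6.76, 7.37 and 6.74 over the list. The part of microglia and macrophages in the levels of the set was not tested.

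**Figure D4:**
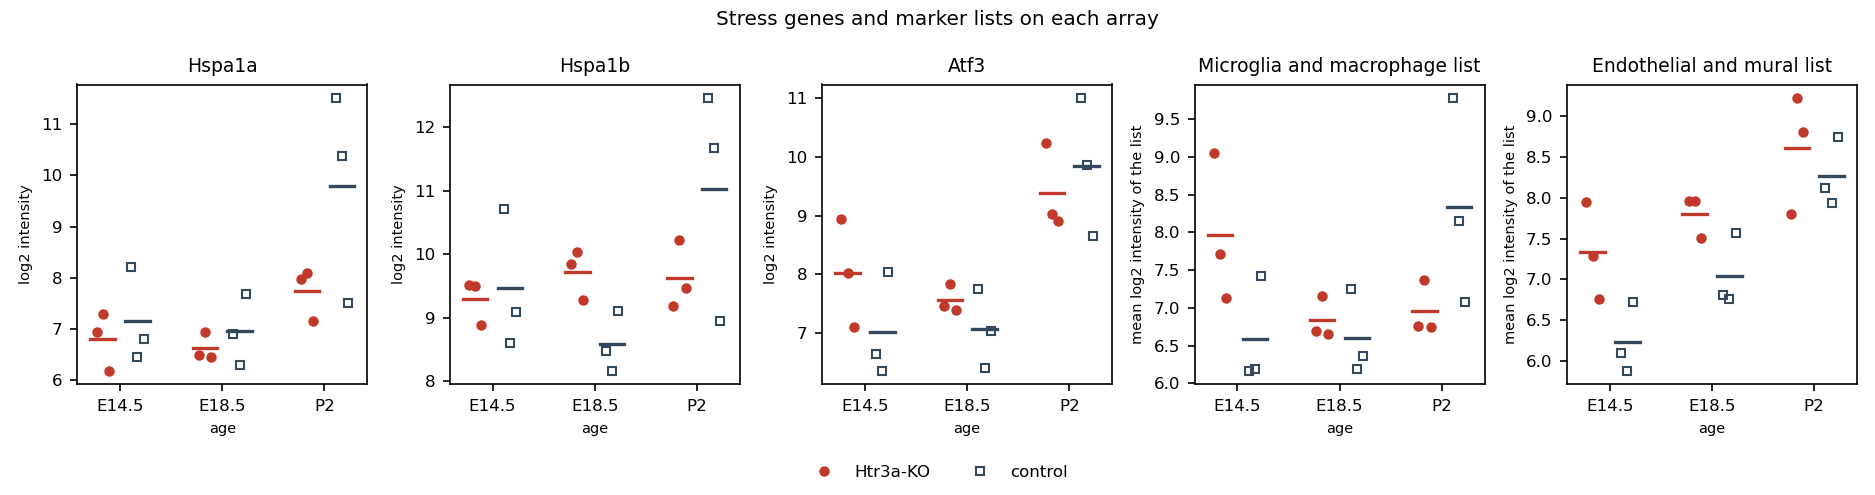
Log2 intensity (y axis) of Hspa1a, Hspa1b and Atf3, and the mean log2 intensity of the microglia and macrophage and of the endothelial and mural marker lists, on each array by age (x axis), with Htr3a-KO arrays as red circles left of control arrays as open blue squares and a bar at each group's mean of 3 arrays. In P2 control cells array 1 is the highest and array 3 the lowest for Hspa1a, Hspa1b, Atf3 and the microglia list alike. In E14.5 control cells Hspa1a is highest on array 1 and the microglia list on array 3.

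Markers of further cell types differed between the ages. The shares of all genes that rose or fell in each step are given with the age steps above. The 12 endothelial and mural markers summed to 6697 to 11900 in Htr3a-KO and 5679 to 8800 in control arrays at P2, against 1595 to 4118 in Htr3a-KO and 943.4 to 1606 in control arrays at E14.5. Of the 12, 1 passed for the mean over ages (higher in Htr3a-KO). From E14.5 to E18.5, 2 of 12 rose in each genotype (Slco1c1 and Cspg4). From E18.5 to P2 the same 2 rose in Htr3a-KO cells, and 4 in control cells, where Pdgfrb and Rgs5 passed too. The endothelial genes Cldn5, Cdh5, Flt1, Kdr, Tek and Esam passed in none of these steps. Slco1c1 and Pdgfrb averaged 7.18 and 6.65 in Htr3a-KO and 5.58 and 4.24 in control cells at E14.5. Of the 10 astrocyte markers, 9 rose from E18.5 to P2 in each genotype. Aqp4 averaged 11.25 in Htr3a-KO and 10.64 in control cells at P2, against 6.24 in Htr3a-KO and 4.56 in control cells at E18.5. Of the 9 oligodendrocyte lineage markers, 8 rose from E14.5 to E18.5 in each genotype, and 5 rose in Htr3a-KO and 8 in control cells from E18.5 to P2. Olig1 averaged 12.75 in Htr3a-KO and 12.24 in control cells at E18.5, against 7.77 in Htr3a-KO and 7.25 in control cells at E14.5. Of the 11 excitatory neuron markers, 6 fell in Htr3a-KO and 5 in control cells in the first step, and 8 fell in Htr3a-KO and 6 in control cells in the second. The falls of the first step were Neurod1, Neurog2, Eomes, Fezf2 and Bcl11b in both genotypes and Emx1 in Htr3a-KO cells. Neurod2, Neurod6, Tbr1, Slc17a6 and Slc17a7 did not pass in that step. Eomes averaged 5.58 in Htr3a-KO and 6.86 in control cells at P2, against 11.65 in Htr3a-KO and 11.39 in control cells at E14.5. The 4 erythroid markers summed to 707.8 to 8051 in Htr3a-KO and 427.6 to 1558 in control arrays at E14.5. Of the 17 CGE interneuron markers, Htr3a among them, 1 rose and 1 fell in Htr3a-KO and 4 rose and 3 fell in control cells in the first step, and 2 rose in Htr3a-KO and 1 rose and 1 fell in control cells in the second. The part of a changed cell makeup in the age steps of early genes was not tested, and age and makeup cannot be told apart in these arrays.

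Other genes of the pathway were read from 5 lists. Of all genes, 6.26% rose and 8.88% fell in Htr3a-KO cells in the first step, and 6.06% and 4.93% in control cells. In the second step 13.5% rose and 15% fell in Htr3a-KO cells, and 9.96% and 9.75% in control cells. Of 31 further early induced genes tested, 4 rose in Htr3a-KO and 7 in control cells from E14.5 to E18.5. From E18.5 to P2, 9 rose in Htr3a-KO cells, and 9 rose and 2 fell in control cells. Spry2 and Spry4, inhibitors of receptor tyrosine kinase signalling, rose by 1.22 ± 0.31 (SE, adjusted p = 0.0164) and 0.52 ± 0.15 (SE, adjusted p = 0.0347) in the first step in Htr3a-KO cells, and by 1.36 and 0.67 in control cells. Maff, a small MAF factor, had a difference of 0.47 (adjusted p = 0.337) in Htr3a-KO cells and rose by 1.76 ± 0.33 (SE, adjusted p = 0.00320) in control cells. Socs3, which inhibits cytokine signalling, rose by 1.91 ± 0.21 (SE, adjusted p = 2.25e-05) in Htr3a-KO and 2.58 ± 0.21 (SE, adjusted p = 2.23e-06) in control cells from E18.5 to P2. Cebpd, a factor of the acute phase response, rose by 2.25 ± 0.44 (SE, adjusted p = 0.00182) in Htr3a-KO and 2.72 ± 0.44 (SE, adjusted p = 0.000621) in control cells. Nfkbia, the inhibitor and target of NF-kappaB, rose by 0.61 ± 0.19 (SE, adjusted p = 0.0280) in Htr3a-KO and 0.93 ± 0.19 (SE, adjusted p = 0.00367) in control cells. None of the 31 passed between genotypes, in which 0.014% to 0.035% of all genes did at single ages.

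Of 24 genes that signal to early promoters, 5 rose in each genotype from E14.5 to E18.5, and from E18.5 to P2 1 rose and 4 fell in Htr3a-KO and 3 rose and 1 fell in control cells. Mef2c, a factor at activity-dependent promoters, rose by 1.29 ± 0.23 (SE, adjusted p = 0.00194) in Htr3a-KO and 1.85 ± 0.23 (SE, adjusted p = 0.000143) in control cells in the first step. Camk2b, a calcium-dependent kinase, rose by 1.56 ± 0.24 (SE, adjusted p = 0.000883) in Htr3a-KO and 1.82 ± 0.24 (SE, adjusted p = 0.000270) in control cells. Ntrk2, the receptor of BDNF, rose by 1.17 ± 0.28 (SE, adjusted p = 0.0136) in Htr3a-KO and 1.20 ± 0.28 (SE, adjusted p = 0.0128) in control cells. Creb1, which binds the cyclic AMP response element, fell by 0.79 from E18.5 to P2 in Htr3a-KO cells (adjusted p = 0.000338), and its difference in control cells was -0.29 (adjusted p = 0.103). Mapk8, the stress kinase JNK1, fell by 0.57 in Htr3a-KO and by 0.63 in control cells in that step.

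Of 16 other heat shock and chaperone genes, 3 rose in Htr3a-KO and 2 in control cells in the first step, and 3 rose and 3 fell in Htr3a-KO and 3 rose in control cells in the second. Those that rose to P2 were Hspb1 (0.93 in Htr3a-KO and 0.92 in control cells), Cryab (1.24 in Htr3a-KO and 1.74 in control cells) and Bag3 (0.78 in Htr3a-KO and 0.88 in control cells), small chaperones and a partner of HSP70. Of 18 genes of the unfolded protein and integrated stress responses, 1 rose and 2 fell in Htr3a-KO and 2 fell in control cells in the first step, and 1 rose in Htr3a-KO and 2 rose in control cells in the second. Chac1, a target of ATF4, fell by 2.47 in the first step in Htr3a-KO cells (adjusted p = 0.00976), and its difference in control cells was -1.43 (adjusted p = 0.118). Calr, an endoplasmic reticulum chaperone, rose by 0.43 in Htr3a-KO and 0.43 in control cells in the second. Of 12 p53 and oxidative stress targets, 1 rose in each genotype in the first step, and 1 rose and 3 fell in Htr3a-KO and 2 rose and 3 fell in control cells in the second. Mdm2, which degrades p53, fell by 0.57 in Htr3a-KO and by 0.49 in control cells, and Nqo1, an NRF2 target, rose by 0.71 in Htr3a-KO and 0.53 in control cells. Beside the shares of all genes given above, counts of 3 or fewer in lists this short are not read as a response of these pathways. The medians of these 3 stress lists lay between -0.20 and 0.46 in the 4 age comparisons, and those of the members between 0.27 and 0.81. In the second step in control cells the median of the p53 and oxidative stress list (0.46) was above that of the members (0.27).

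Of the 42 genes, 20 had more than 1 probe set and 22 had 1. For the calls of members with several, 46 values of other probe sets were available. Of these, 26 had the same direction and passed, 15 had the same direction and did not pass, and 5 had the other direction. The 5 belonged to Egr3 and Nr4a3, whose values are given above, and to Ier5.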

How the data were processed

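Per the design text, RNA of sorted cells was amplified, labelled and hybridised to Affymetrix Mouse Genome 430 2.0 arrays, and the authors used Partek Genomic Suite 6.6 and normalised the signals by robust multi-array averaging. The deposited values were therefore log2 intensities, given to 2 decimals for 45101 probe sets on 18 arrays, and were used as deposited. The annotation named 1 gene for 34945 probe sets, several for 932 and none for 9160. Probe sets in the lowest 30% by mean (under 5.255) were left out, and the brightest stood for each gene, which left 14292 genes. Array values carry no counts, so the number of arrays limits the precision.

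The 6 groups of age and genotype each had 1 mean in a limma 3.58.1 fit (R 4.3.3) with 12 residual degrees of freedom. The 10 comparisons were Htr3a-KO minus control at each age and over their mean, E18.5 minus E14.5 and P2 minus E18.5 in each genotype, and the differences of these steps. The threshold was an adjusted p of 0.05, with Benjamini-Hochberg adjustment over all 14292 genes. Fold changes are computed from log2 differences, and ± after a difference is its SE.

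All members could be named. Every array was given for the 16 members with the smallest adjusted p and for Fos, Egr1, Jun, Arc, Npas4, Hspa1a and Hspa1b. Up to 4 passing genes of each of 5 pathway lists, and the most variable markers of 7 cell type lists, could be named. Bdnf, Klf10 and Nr4a2 at E18.5 were added after their values were seen. The members and lists were chosen with earlier results of these data known. Promoters came from RefSeq (GRCm38.p6), searched on both strands. The alternatives were no filter, a stricter filter of 50%, averaging each gene's probe sets, median centring, quantile normalization, a trended and robust prior variance, the arrays compared alone, a replicate block and each array left out. Other probe sets were added after seeing the data.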

Additional observations from a re-analysis of the deposited data

How the results depend on the processing

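Counts of members passing were compared over the alternatives. With each array left out in turn, they ranged from 0 to 3 for Htr3a-KO minus control at E14.5, 0 to 0 at E18.5, 0 to 1 at P2 and 0 to 1 for the mean over ages. They ranged from 9 to 15 for the first step in Htr3a-KO and 13 to 23 in control cells, 5 to 16 for the second step in Htr3a-KO and 8 to 13 in control cells, and 0 to 1 and 0 to 0 for the step differences. Among the other alternatives, 1 member (Nr4a3, lower in Htr3a-KO) passed at E18.5 when the probe sets of each gene were averaged, and 13 passed in the first control step with the 6 arrays compared alone. No alternative other than other probe sets turned the direction of a called member. Other probe sets, chosen after seeing the data, turned 5 values: Egr3 in the first step (-0.34 in Htr3a-KO and -0.12 in control cells), Nr4a3 in control cells (-0.043 in the first step and 0.023 in the second) and Ier5 in the second step in Htr3a-KO cells (0.03). Same-numbered arrays of 1 age correlated at -0.542 to 0.303 in their deviations, over 0.1 in 2 of 9 pairs, so the numbers were not taken to pair arrays. With the replicate block, 15 members passed in the first step in Htr3a-KO and 19 in control cells, 15 in the second step in Htr3a-KO and 15 in control cells, and 0 in the genotype comparisons and step differences. Having 3 arrays a group and dim probe sets (Ccn2, Klf2 and Egr2 at E14.5) limit what can be resolved, and the cause of these changes was not tested.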
